A study of Rattus norvegicus with 12 samples.

Results

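JQ1, a compound that occupies the bromodomains of the BET proteins, was compared with its solvent DMSO in neonatal rat cardiomyocytes treated with endothelin-1 (ET-1). The members are the 4 libraries of these 2 groups, 2 with ET-1 and JQ1 and 2 with ET-1 and DMSO, of 12 libraries in all, chosen by the treatments in their titles. Cardiomyocytes were isolated from 1 to 3 day old Sprague-Dawley rats, grown with the DNA synthesis blocker AraC that was removed before treatment, and exposed for 24 h to ET-1 at 100 nM with JQ1 at 1 µM or with DMSO. The other 8 libraries were treated for 24 h with acetic acid vehicle or with phenylephrine (PE, 10 µM), each with JQ1 (1 µM) or DMSO. They serve to set the JQ1 change beside its counterpart. They also enter the scaling, the filter, the replicate term and the shared estimate of spread behind the p-values. Each group held 2 libraries, numbered 1 and 2. Whether the 2 came from separate cultures or animals is not stated, and the p-values reflect only how far these libraries spread, possibly for technical reasons.

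ET-1 is a peptide that acts on the G protein-coupled endothelin receptors and drives cultured cardiomyocytes to enlarge and to raise fetal heart genes such as the natriuretic peptides. The BET proteins, such as Brd2 and Brd3, read acetylated histones, and the family is linked to the elongation kinase P-TEFb, a pair of Cdk9 with a cyclin T. P-TEFb is held inactive in a complex with the 7SK RNA and the Hexim proteins, and is released from it when transcription is stimulated. The study's title places P-TEFb complexes in the growth response of these cells, and the comparison asks which transcripts differed when BET proteins were blocked during ET-1 treatment.

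RNA depleted of ribosomal RNA had been sequenced, and levels are FPKM (fragments per kilobase of transcript, scaled to the library total), summed by gene and rescaled between libraries by median of ratios. Coverage summed to 2.341 to 2.873 gigabases in the 4 libraries. Mitochondrial transcripts took 1.288 to 2.352% of the bases. Among the marker lists, cardiomyocyte markers had the highest summed level. The 10 cardiomyocyte markers summed to 15513 and 20313 FPKM with DMSO and 20480.0 and 22758 with JQ1, and fibroblast markers to 897 and 218 FPKM with DMSO and 516 and 112 with JQ1. Fibroblast markers were higher in replicate 1 than in replicate 2 of both groups. The test keeps the replicate number as a term, so that JQ1 and DMSO are compared within each number. The smooth muscle and pericyte list summed to 2140.2 and 2366 FPKM with DMSO and 2406 and 2876 with JQ1, above the fibroblast list. It includes the desmin gene Des, so its sum need not reflect such cells alone. Summed levels of the macrophage and endothelial marker lists were small beside these. They were 22.1 and 9.04 FPKM with DMSO and 12.9 and 4.73 with JQ1 for macrophages. For endothelial cells they were 19.1 and 7.49 FPKM with DMSO and 14.1 and 7.36 with JQ1. In such bulk samples fewer cells of a type and less RNA per cell cannot be told apart.

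Most genes tested differed between JQ1 and DMSO. Of 13793 genes tested, 7849 (56.9%) differed from DMSO at an adjusted p under 0.05, with 3740 (27.1%) higher and 4109 (29.8%) lower with JQ1. Large changes were mostly falls: 1398 genes (10.1%) fell at least 2-fold and 330 (2.39%) rose at least 2-fold. The 2 JQ1 libraries lay wholly above or wholly below the 2 DMSO libraries for 7244 of the 7849 called genes (92.3%), where 66.8% of all genes tested showed such a gap. Without the replicate term 2471 genes (17.9%) were higher and 2697 (19.6%) lower, all 5168 of them also called with it and in the same direction. From the 4 compared libraries alone, with the replicate term, 5840 genes were called (2561 higher and 3279 lower). The split depends on scaling. On the deposited scale 2680 genes were higher and 4643 lower (36.6% of calls higher, against 47.6%), and scaled by genes of at least 400 nt 2635 were higher and 4736 lower (35.7%). That last scaling shifted the median of all genes by -0.10 on the log2 scale, from 0.03 to -0.08.

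**Figure D1:**
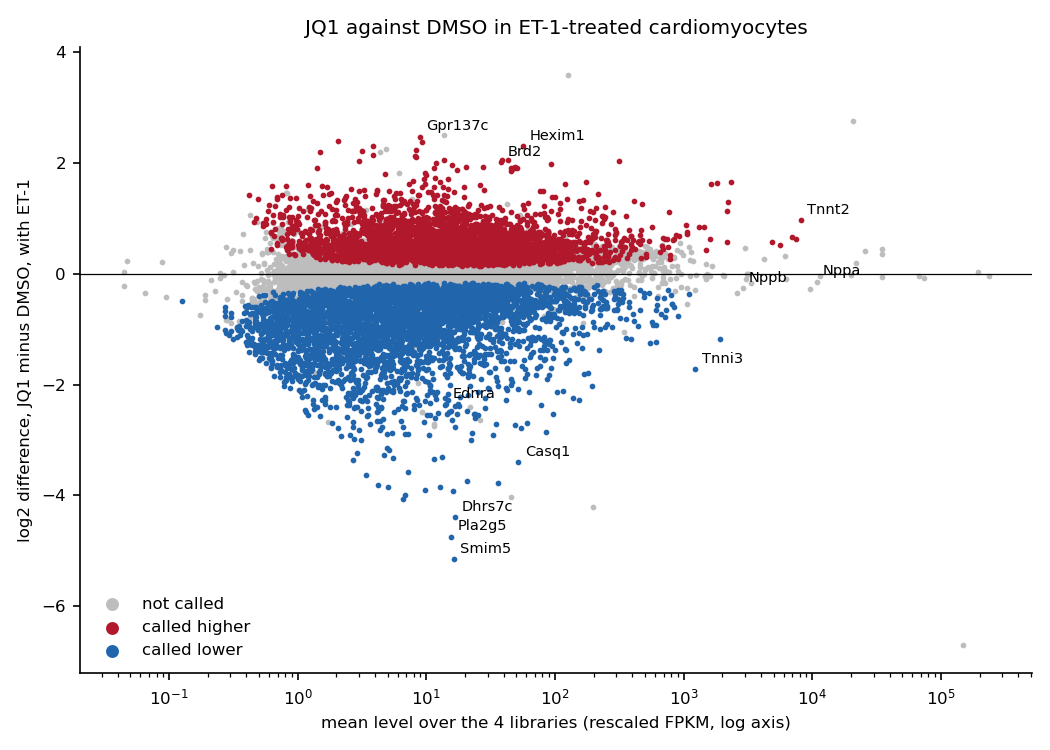
Each point is 1 of the 13793 genes tested, with its mean level over the 4 libraries (rescaled FPKM, log axis) against the log2 difference between JQ1 and DMSO with ET-1. Red points were called higher and blue points lower at an adjusted p under 0.05. Among called genes the falls reach further from 0 than the rises, down to Smim5 at -5.15.

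Hexim1 and Brd2, genes of the P-TEFb and BET machinery, were among the rises of at least 2-fold. Hexim1 (rn6 chromosome 10, 91200874 to 91202984, plus strand), which inhibits P-TEFb, stood at 20.3 and 17.0 FPKM with DMSO and 98.1 and 90.3 with JQ1 (log2 difference 2.31 ± 0.12 SE, adjusted p = 1.5e-05). Brd2 (rn6 chromosome 20, 5262120 to 5269337, plus strand), a BET protein gene, stood at 14.5 and 15.1 FPKM with DMSO and 63.0 and 60.8 with JQ1 (log2 difference 2.03 ± 0.07 SE, adjusted p = 4.1e-06). For both genes each JQ1 library was more than 3 times the higher DMSO library. The annotation holds a further entry on the same chromosome, AC098547.1 (3910555 to 3917426, minus strand), whose levels ran nearly the same as those of Brd2 (14.5 and 15.2 FPKM with DMSO and 64.5 and 61.9 with JQ1), so reads may be shared between the copies and the level of Brd2 is uncertain. Brd3 (9.35 and 9.91 FPKM with DMSO and 11.5 and 10.7 with JQ1) did not pass the test (log2 difference 0.19, adjusted p = 0.16).

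Of the 15 measured genes of P-TEFb, the 7SK complex and the super elongation complex, 10 rose and 2 fell, with a median log2 difference of 0.42, beside 27.1% higher, 29.8% lower and a median of 0.03 over all genes. The counts were the same without the replicate term. Rises of the kinase itself were modest. Cdk9, the catalytic subunit, went from 15.4 and 13.3 FPKM with DMSO to 19.4 and 19.3 with JQ1 (log2 difference 0.42 ± 0.07 SE, adjusted p = 0.0013). Its cyclin partner Ccnt2 stood at 10.2 and 11.3 FPKM with DMSO and 15.4 and 16 with JQ1 (log2 difference 0.53 ± 0.06 SE, adjusted p = 0.00023). The other cyclin T, Ccnt1, stood at 9.13 and 9.49 FPKM with DMSO and 11.9 and 11.2 with JQ1 (log2 difference 0.29 ± 0.06 SE, adjusted p = 0.0043) and was not called on the deposited scale, when scaled by longer genes or from the 4 libraries alone (adjusted p 0.0042 to 0.073 over the alternatives). In all 3 genes both JQ1 libraries exceeded both DMSO libraries. Mllt3, a reader subunit of the super elongation complex, was higher at 4.04 and 4.56 FPKM with DMSO and 9.37 and 7.70 with JQ1 (log2 difference 0.91 ± 0.11 SE, adjusted p = 0.0003). Mepce, which caps 7SK RNA, was at 7.84 and 6.30 FPKM with DMSO and 10.0 and 10.6 with JQ1 (log2 difference 0.52 ± 0.11 SE, adjusted p = 0.0047). Both falls were in 7SK complex genes. Hexim2, the paralog of Hexim1, went the opposite way at 7.11 and 7.68 FPKM with DMSO and 2.57 and 3.24 with JQ1 (log2 difference -1.22 ± 0.10 SE, adjusted p = 4.5e-05), and Larp7, which binds the end of 7SK, was at 18.0 and 18.8 FPKM with DMSO and 13.3 and 14.1 with JQ1 (log2 difference -0.41 ± 0.07 SE, adjusted p = 0.0013). Mepce, Larp7 and Cdk9 overlap other annotated genes and are uncertain to that extent. Of 8 genes known to respond to BET inhibitors 4 rose (50%) and 3 fell (37.5%; 2 and 0 without the replicate term, and 2 rises without DMSO replicate 2). Serpini1, a serine protease inhibitor gene that is known to rise with BET inhibitors, was at 0.316 and 0.112 FPKM with DMSO and 3.09 and 2.44 with JQ1 (log2 difference 2.20 ± 0.11 SE, adjusted p = 1.1e-05).

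The promoters of Hexim1 and Brd2, which rose most in this machinery, are shown because their transcripts changed together. Each sequence is the 150 bases before the RefSeq transcription start on build GRCr8, 5′ to 3′, with capitals marking GGGCGG or its complement CCGCCC and TATAAA. Hexim1 lies on chromosome 10 at 88562739 to 88562888 on the plus strand and Brd2 on chromosome 20 at 4729929 to 4730078 on the plus strand.
Hexim1: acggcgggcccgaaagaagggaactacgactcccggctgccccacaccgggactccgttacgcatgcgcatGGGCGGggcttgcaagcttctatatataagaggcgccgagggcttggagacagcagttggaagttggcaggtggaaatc
Brd2: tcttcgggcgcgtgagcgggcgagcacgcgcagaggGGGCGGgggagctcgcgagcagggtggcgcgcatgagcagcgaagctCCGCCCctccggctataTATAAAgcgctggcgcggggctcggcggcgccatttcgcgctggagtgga
GGGCGG or its complement occurs once before Hexim1 and at 2 places before Brd2, and TATAAA occurs before Brd2. These are matches of letters and not tests of binding.

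Promoters could be compared over many genes, with the RefSeq windows of 250 bases before to 50 after the start for 8867 of the 13793 genes tested (8824 distinct windows). TATAAA on either strand occurred in 15% of the windows of genes that rose at least 2-fold (29 of 193) and in 9.63% of those of genes that fell at least 2-fold (88 of 914). Its share was 5.83% among genes not called and 6.58% among all tested. GGGCGG occurred in 75.1% of the windows of such rises, in 53.4% of the falls and in 65.0% of all tested. The mean GC content was 63.1% for the rises, 58.4% for the falls and 61.3% over all tested. CCAAT, which does not overlap these letters, occurred in 46.1% of the rises, 38.2% of the falls and 38.5% of all tested. These are shares of 3 of the 8 motifs searched and were not tested.

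**Figure D2:**
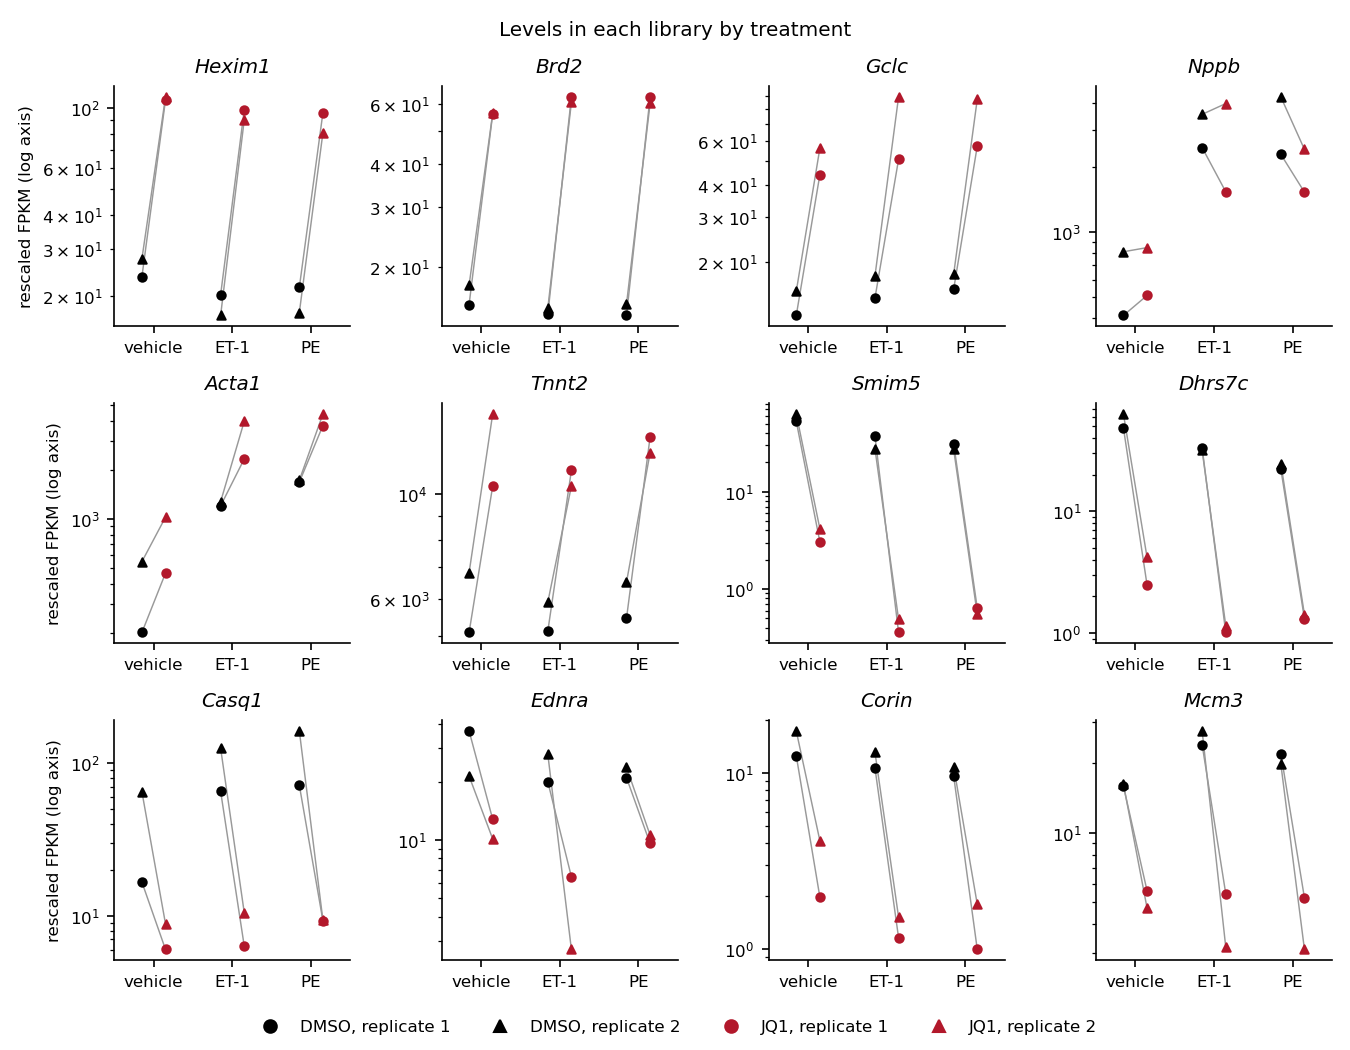
Rescaled FPKM (log axis) of 12 genes in all 12 libraries, by treatment on the horizontal axis, with DMSO in black and JQ1 in red, circles for replicate 1 and triangles for replicate 2, and a line joining libraries of one number. Hexim1, Brd2, Gclc, Acta1 and Tnnt2 sit higher with JQ1 in ET-1-treated cells, Nppb overlaps, and Smim5, Dhrs7c, Casq1, Ednra, Corin and Mcm3 sit lower.

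Other genes among the 12 largest rises started from a range of levels. Gpr137c, a membrane protein gene, had the largest log2 rise, from 1.47 and 3.42 FPKM with DMSO to 12.3 and 18.3 with JQ1 (log2 difference 2.48 ± 0.13 SE, adjusted p = 1.4e-05), but it overlaps Rcor2 on the same strand, so its level is uncertain. Arrdc2, an alpha-arrestin gene, went from 0.964 and 0.77 FPKM with DMSO to 9.50 and 4.09 with JQ1 (log2 difference 2.31 ± 0.23 SE, adjusted p = 0.00012). Cnnm4, a magnesium transporter gene, went from 2.26 and 2.92 FPKM with DMSO to 13.0 and 15.2 with JQ1 (log2 difference 2.25 ± 0.24 SE, adjusted p = 0.00016). In all 3 genes the JQ1 libraries lay above the DMSO libraries. Atp6v1c2, a subunit of the vacuolar proton pump, stood at 0.805 and 0.768 FPKM with DMSO and 5.77 and 5.23 with JQ1 (log2 difference 2.22 ± 0.11 SE, adjusted p = 9.8e-06). Flrt3, a cell adhesion and growth factor signalling gene, stood at 1.02 and 1.12 FPKM with DMSO and 8.36 and 4.98 with JQ1 (log2 difference 2.15 ± 0.28 SE, adjusted p = 0.00045). Zswim6 stood at 2.91 and 2.59 FPKM with DMSO and 14.4 and 13.0 with JQ1 (log2 difference 2.13 ± 0.07 SE, adjusted p = 4.1e-06). The remaining rises of the 12 largest were Entpd5, Gclc, Hap1 and Nap1l5, with log2 differences of 2.05, 2.05, 2.04 and 2.01, and none of the 12 had overlapping groups. Entpd5 and Nap1l5 overlap genes on the opposite strand, Coq6 and Herc3.

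The largest falls, several of them in genes of striated muscle, went from moderate levels to about 1 FPKM or less in most cases. Smim5 (rn6 chromosome 10, 104451222 to 104457001, plus strand), a small membrane protein gene that overlaps Recql5 on the opposite strand, stood at 37.2 and 27.6 FPKM with DMSO and 0.357 and 0.487 with JQ1 (log2 difference -5.15 ± 0.18 SE, adjusted p = 4.1e-06). Pla2g5, a secreted phospholipase gene, stood at 38.4 and 22.7 FPKM with DMSO and 1.38 and 0.168 with JQ1 (log2 difference -4.75 ± 0.26 SE, adjusted p = 1.5e-05). Dhrs7c, a dehydrogenase of the sarcoplasmic reticulum, stood at 33.3 and 31.8 FPKM with DMSO and 1.01 and 1.15 with JQ1 (log2 difference -4.39 ± 0.15 SE, adjusted p = 4.1e-06). All 3 were below 2 FPKM in both JQ1 libraries. Tmem182, a muscle membrane protein gene, went from 27.6 and 33.7 FPKM with DMSO to 1.31 and 1.82 with JQ1 (log2 difference -3.92 ± 0.13 SE, adjusted p = 4.1e-06), and Lsmem2 from 21.0 and 27.5 FPKM with DMSO to 0.636 and 2.04 with JQ1 (log2 difference -3.85 ± 0.20 SE, adjusted p = 1.4e-05). The ankyrin repeat and SOCS box genes Asb4 and Asb9, parts of ubiquitin ligases, fell by 3.90 and 3.81 on the log2 scale, and Asb4 overlaps Pon2 and Pon3 on the opposite strand. Myom2, which crosslinks myosin in the M-band, went from 85.0 and 46.2 FPKM with DMSO to 10.6 and 1.43 with JQ1 (log2 difference -3.77 ± 0.48 SE, adjusted p = 0.00038). Its difference was -4.53 without JQ1 replicate 1 and -3.00 without JQ1 replicate 2. Wisp2, a matricellular protein gene, went from 14.7 and 5.08 FPKM with DMSO to 0.232 and 0.0632 with JQ1 (log2 difference -3.84 ± 0.41 SE, adjusted p = 0.00017). Lrrc4b, Olr63 and Gngt2 completed the 12, with differences of -3.75, -4.07 and -3.99, and the groups did not overlap in any of the 12. The 3 genes with the lowest p-values not yet named also fell: Ptges3l from 39.2 and 40.1 FPKM with DMSO to 4.20 and 4.88 with JQ1, Glod5 from 26.4 and 16.2 FPKM with DMSO to 2.07 and 1.22 with JQ1 and Mtfp1, a mitochondrial fission gene, from 11.4 and 13.4 FPKM with DMSO to 1.17 and 1.3 with JQ1.

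The natriuretic peptide transcripts, the standard readout of cardiomyocyte hypertrophy, did not pass the test. Nppa, which encodes the atrial peptide, stood at 8388 and 14031 FPKM with DMSO and 7067 and 13776 with JQ1, and at 2622 and 4719.7 FPKM in vehicle with DMSO (log2 difference -0.14 ± 0.14 SE, adjusted p = 0.42 for JQ1 against DMSO with ET-1). Nppb, which encodes the brain peptide, stood at 2473 and 3529.5 FPKM with DMSO and 1541 and 3961 with JQ1, and at 409.8 and 811 FPKM in vehicle with DMSO (log2 difference -0.26 ± 0.19 SE, adjusted p = 0.28). The groups overlapped for both, and for Nppb JQ1 was below DMSO in replicate 1 and above it in replicate 2. Its difference was 0.04 (adjusted p = 0.85) without JQ1 replicate 1 and -0.56 (adjusted p = 0.037) without JQ1 replicate 2 (adjusted p 0.037 to 0.87 over the alternatives). Of the 18 hypertrophy and fetal genes 6 rose and 3 fell (1 and 2 without the replicate term), with rises counted at 2 without JQ1 replicate 2 and at 3 without DMSO replicate 2. The share higher, 33.3%, is near the 27.1% of all genes tested, and the share lower was 16.7% beside 29.8%. The median was -0.09, and it was 0.14 without JQ1 replicate 1 and 0.08 without DMSO replicate 1. Acta1, skeletal actin and a fetal gene of the stressed heart, stood at 1203 and 1276 FPKM with DMSO and 2332 and 3967 with JQ1 (log2 difference 1.3 ± 0.34 SE, adjusted p = 0.013). Fhl1, a muscle stress sensor, stood at 851 and 1697 FPKM with DMSO and 1509.9 and 4613 with JQ1 (log2 difference 1.13 ± 0.20 SE, adjusted p = 0.0018), and Ankrd1, a titin-binding stress gene, at 3867 and 5338 FPKM with DMSO and 4988 and 8447 with JQ1 (log2 difference 0.51 ± 0.13 SE, adjusted p = 0.01). The groups overlapped for Fhl1 and Ankrd1 but not for Acta1. These 3 rises were lost without the replicate term: adjusted p 0.013 to 0.11 over the alternatives for Acta1, adjusted p 0.0018 to 0.28 over the alternatives for Fhl1 and adjusted p 0.0025 to 0.33 over the alternatives for Ankrd1. Acta1 was at 1.21 (adjusted p = 0.069) without JQ1 replicate 2 and 0.98 (adjusted p = 0.11) without DMSO replicate 2, and Ankrd1 at 0.41 (adjusted p = 0.077) and 0.44 (adjusted p = 0.082). Acta2, smooth muscle actin, fell from 112 and 104 FPKM with DMSO to 72.1 and 49.4 with JQ1 (log2 difference -0.85 ± 0.15 SE, adjusted p = 0.0022).

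Of 5 measured genes that process or receive natriuretic peptides 4 fell and 0 rose (2 and 0 without the replicate term), with a median of -1.22. That is 80% lower, beside 29.8% of all genes tested. Corin, the protease that activates the atrial peptide, stood at 10.7 and 13.1 FPKM with DMSO and 1.15 and 1.51 with JQ1 (log2 difference -2.76 ± 0.17 SE, adjusted p = 1.7e-05). Npr2, a guanylyl cyclase receptor, stood at 4.03 and 2.49 FPKM with DMSO and 1.32 and 0.873 with JQ1 (log2 difference -1.22 ± 0.09 SE, adjusted p = 4.2e-05). The groups did not overlap in either gene.

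Sarcomere genes moved in both directions. In the thick filament and M-band 9 of 18 fell (50%, beside 29.8% of all genes) and 2 rose (5 and 1 without the replicate term), and the count of rises was 1 without replicate 1 of either group or DMSO replicate 2. In the thin filament 4 of 11 fell and 4 rose (3 and 1), a share of 36.4% each way. The troponin pair split. Tnnt2, cardiac troponin T, stood at 5118 and 5897 FPKM with DMSO and 11236 and 10408 with JQ1 (log2 difference 0.98 ± 0.19 SE, adjusted p = 0.0031). Tnni3, the adult cardiac troponin I, stood at 1772 and 2016 FPKM with DMSO and 561 and 589.5 with JQ1 (log2 difference -1.71 ± 0.18 SE, adjusted p = 0.00017), and overlaps Dnaaf3 on the same strand. Neither pair of groups overlapped. Myl3, the ventricular essential light chain, stood at 2542 and 2763 FPKM with DMSO and 1108 and 1243 with JQ1 (log2 difference -1.17 ± 0.20 SE, adjusted p = 0.0014). Mybphl, a myosin-binding protein gene, stood at 4.28 and 7.5 FPKM with DMSO and 0.171 and 0.391 with JQ1 (log2 difference -3.00 ± 0.18 SE, adjusted p = 1.6e-05), and Trim54, a muscle ubiquitin ligase gene, at 79.8 and 108 FPKM with DMSO and 6.72 and 24.8 with JQ1 (log2 difference -2.79 ± 0.38 SE, adjusted p = 0.00051). Lmod3, which nucleates actin filaments in muscle, stood at 3.99 and 3.94 FPKM with DMSO and 0.0908 and 0.216 with JQ1 (log2 difference -2.78 ± 0.16 SE, adjusted p = 1.6e-05). Mybpc3, the cardiac myosin-binding protein C, was higher at 715 and 882 FPKM with DMSO and 1173 and 1465 with JQ1 (log2 difference 0.72 ± 0.09 SE, adjusted p = 0.0004), and Tpm1, tropomyosin, at 4656 and 6058 FPKM with DMSO and 7260.2 and 9685 with JQ1 (log2 difference 0.66 ± 0.15 SE, adjusted p = 0.0056). Both lost the call without the replicate term (adjusted p 0.00012 to 0.05 over the alternatives and adjusted p 0.0015 to 0.14 over the alternatives).

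The myosin heavy chains, whose switch from Myh6 to Myh7 marks hypertrophy in rodents, did not pass the test. Myh6 stood at 600.3 and 831 FPKM with DMSO and 622 and 854 with JQ1 (log2 difference 0.05 ± 0.19 SE, adjusted p = 0.85) and Myh7 at 1823 and 2322 FPKM with DMSO and 1647 and 2424 with JQ1 (log2 difference -0.04 ± 0.15 SE, adjusted p = 0.83). The DMSO and JQ1 libraries overlapped in both, and the sign of each small difference was not stable: Myh6 was at -0.06 on the deposited scale and Myh7 at 0.06 without DMSO replicate 1. Cardiac actin, Actc1, stood at 5208 and 7688 FPKM with DMSO and 4869.9 and 7277 with JQ1 (log2 difference -0.09 ± 0.19 SE, adjusted p = 0.71). In the Z-disc and desmin network 7 of 14 genes rose and 4 fell (50% and 28.6%), but 0 rose and 2 fell without the replicate term, and 2 rose without replicate 2 of either group. Over all genes tested 27.1% rose and 29.8% fell. The falls in this network included Pdlim3, an alpha-actinin partner, at 156 and 197 FPKM with DMSO and 60.2 and 74.9 with JQ1 (log2 difference -1.38 ± 0.09 SE, adjusted p = 2.3e-05), and Myoz2, a calcineurin-binding Z-disc gene, at 411 and 577 FPKM with DMSO and 201 and 237 with JQ1 (log2 difference -1.16 ± 0.14 SE, adjusted p = 0.00028).

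Calls among genes of calcium handling and of the cardiac ion channels were falls. Of 22 calcium handling genes 10 fell and 0 rose (6 and 0 without the replicate term), with a median of -0.42, and 5 of the 12 that did not pass had a positive sign. The share lower was 45.5%, beside 29.8% of all genes tested. Casq1, the calcium buffer of skeletal sarcoplasmic reticulum, stood at 65.5 and 126 FPKM with DMSO and 6.34 and 10.5 with JQ1 (log2 difference -3.39 ± 0.37 SE, adjusted p = 0.00018). Trdn, which anchors calsequestrin to the release channel, stood at 149.7 and 188 FPKM with DMSO and 40.4 and 35.9 with JQ1 (log2 difference -2.13 ± 0.15 SE, adjusted p = 3.1e-05). The release channel itself, Ryr2, stood at 43.1 and 61.2 FPKM with DMSO and 33.2 and 28.3 with JQ1 (log2 difference -0.74 ± 0.15 SE, adjusted p = 0.0041). In all 3 genes both JQ1 libraries were below both DMSO libraries. Hrc, a luminal calcium-binding protein gene, went from 7.30 and 6.83 FPKM with DMSO to 1.40 and 0.879 with JQ1 (log2 difference -2.23 ± 0.31 SE, adjusted p = 0.00057) and overlaps Ppfia3 on the opposite strand. Camk2a, a calcium-dependent kinase gene, went from 3.41 and 3.26 FPKM with DMSO to 0.238 and 0.216 with JQ1 (log2 difference -2.40 ± 0.14 SE, adjusted p = 1.7e-05). Atp2a2, the SERCA2 pump, did not pass the test at 690.1 and 751 FPKM with DMSO and 517 and 573 with JQ1 (log2 difference -0.40 ± 0.16 SE, adjusted p = 0.057), and passed on the deposited scale and by the scaling on longer genes (adjusted p 0.029 to 0.25 over the alternatives).

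Of 17 sodium, pacemaker and potassium channel genes 11 fell and 0 rose (9 and 0 without the replicate term), with a median of -0.83. The share lower was 64.7%, beside 29.8% of all genes tested. Kcnj11, the pore of the ATP-sensitive potassium channel, stood at 22.8 and 24.8 FPKM with DMSO and 5.08 and 3.45 with JQ1 (log2 difference -2.37 ± 0.19 SE, adjusted p = 4.9e-05). Kcnh2, which carries the rapid delayed rectifier current, stood at 23.4 and 25.5 FPKM with DMSO and 7.62 and 4.32 with JQ1 (log2 difference -2.0 ± 0.26 SE, adjusted p = 0.00043). Both were at least 2-fold lower with no overlap. The accessory subunits Kcnip2 and Scn4b were low in every library, with Kcnip2 at 1.06 and 1.79 FPKM with DMSO and 0.0296 and 0.113 with JQ1 (log2 difference -1.73 ± 0.34 SE, adjusted p = 0.003) and Scn4b at 2.92 and 0.974 FPKM with DMSO and 0.324 and 0.0818 with JQ1 (log2 difference -1.70 ± 0.20 SE, adjusted p = 0.00024). Abcc9, the regulatory partner of Kcnj11 that was counted here as a pericyte marker, also fell, from 7.66 and 9.05 FPKM with DMSO to 3.13 and 2.76 with JQ1 (log2 difference -1.36 ± 0.11 SE, adjusted p = 4.5e-05).

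**Figure D3:**
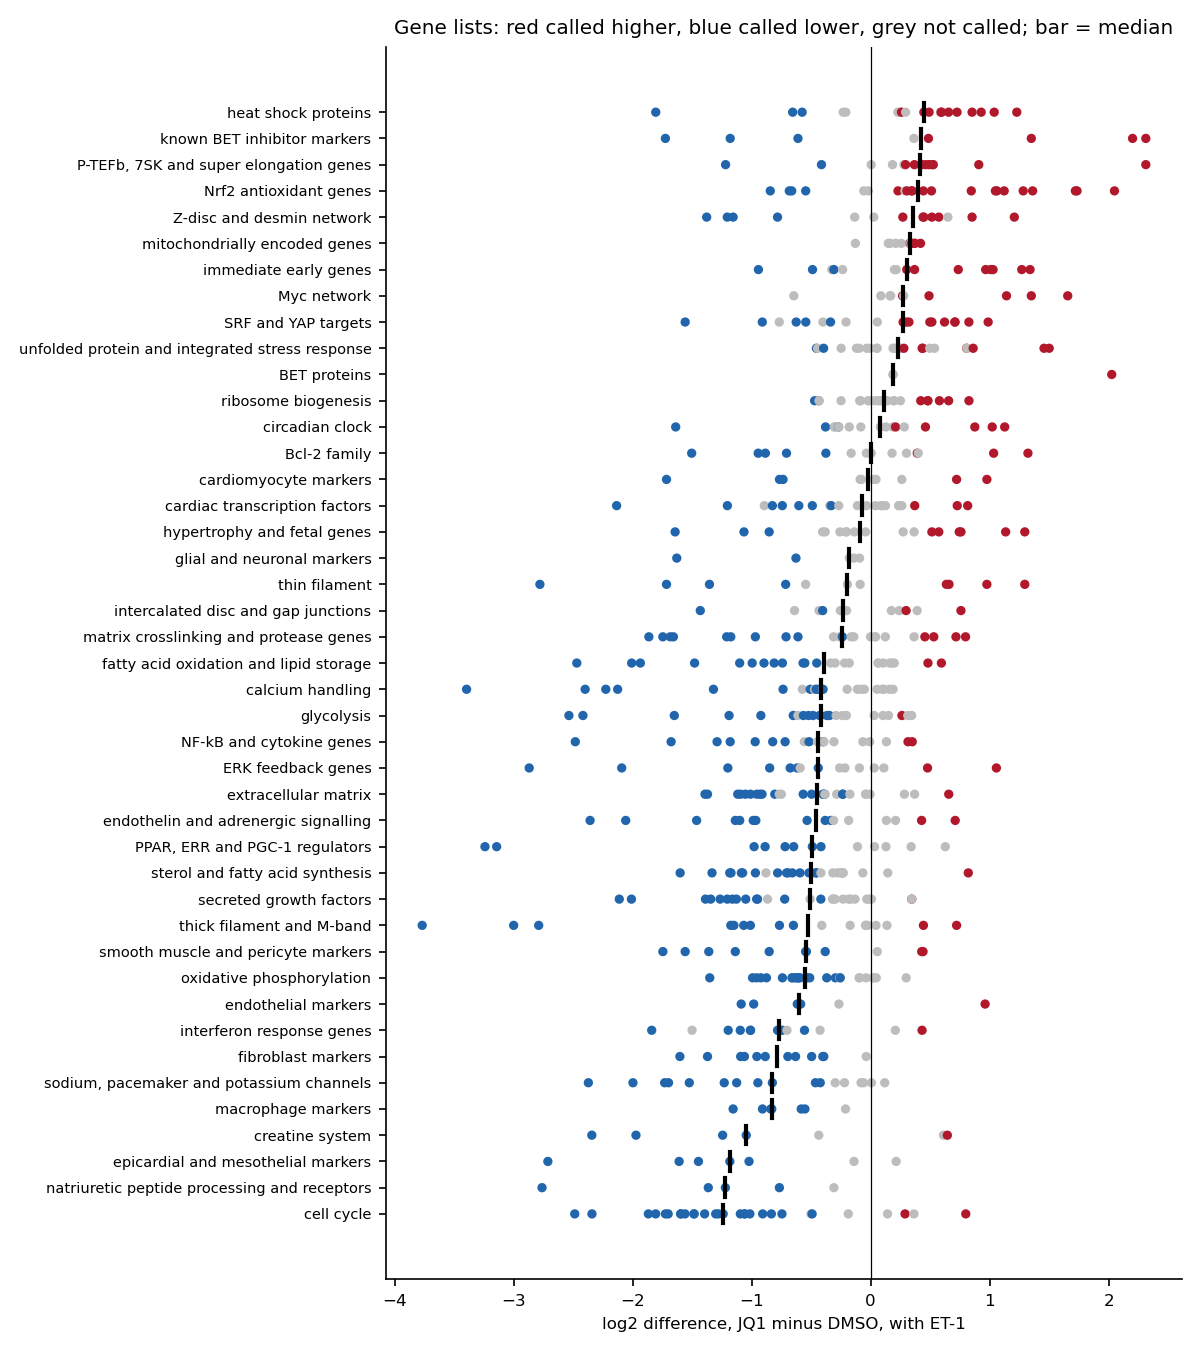
Log2 difference between JQ1 and DMSO with ET-1 for every tested member of each gene list, ordered by median (black bar), with red for members called higher, blue for lower and grey for not called. Cell cycle and natriuretic peptide processing lie among the lowest medians, and P-TEFb, heat shock and Nrf2 genes lie on the positive side.

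Receptors through which the agonists of this study act were among the falls. Of 16 endothelin and adrenergic signalling genes 10 fell (62.5%, beside 29.8% of all genes) and 2 rose (6 and 2 without the replicate term). Ednra, the type A receptor through which ET-1 acts on cardiomyocytes, stood at 20.0 and 27.9 FPKM with DMSO and 6.43 and 2.7 with JQ1 (log2 difference -2.36 ± 0.35 SE, adjusted p = 0.00078). Ednrb, the type B receptor, was under 1 FPKM in all 4 libraries at 0.867 and 0.593 FPKM with DMSO and 0.151 and 0 with JQ1 (log2 difference -1.10 ± 0.17 SE, adjusted p = 0.00096), overlaps Mycbp2, and lost its call without the replicate term (adjusted p 0.00046 to 0.069 over the alternatives). Edn1, which encodes the ET-1 precursor, stood at 3.83 and 3.33 FPKM with DMSO and 1.67 and 1.08 with JQ1 (log2 difference -1.14 ± 0.21 SE, adjusted p = 0.0024). In all 3 genes the JQ1 libraries were the lowest. Adra1a, an alpha-1 receptor gene, went from 5.85 and 11.0 FPKM with DMSO to 2.28 and 2.97 with JQ1 (log2 difference -1.46 ± 0.17 SE, adjusted p = 0.00022), and Bdkrb2, the bradykinin B2 receptor gene, from 4.93 and 8.79 FPKM with DMSO to 0.797 and 1.74 with JQ1 (log2 difference -2.06 ± 0.25 SE, adjusted p = 0.0003). The rises were Adrb1, the main beta-adrenergic receptor of the heart, from 5.72 and 6.59 FPKM with DMSO to 11.7 and 9.20 with JQ1 (log2 difference 0.71 ± 0.16 SE, adjusted p = 0.0064), and Gna11, a G protein subunit downstream of the endothelin receptors, from 20.9 and 20.0 FPKM with DMSO to 29.2 and 26.2 with JQ1 (log2 difference 0.43 ± 0.08 SE, adjusted p = 0.002).

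Among 22 cardiac transcription factor genes 7 fell and 3 rose (4 and 2 without the replicate term). The share lower, 31.8%, is near the 29.8% of all genes tested, and the share higher was 13.6% beside 27.1%. The falls included Irx3, a regulator of ventricular conduction, at 19.8 and 15.3 FPKM with DMSO and 5.07 and 2.48 with JQ1 (log2 difference -2.13 ± 0.19 SE, adjusted p = 6.8e-05), and Irx5 at 13.8 and 13.5 FPKM with DMSO and 8.43 and 6.62 with JQ1 (log2 difference -0.83 ± 0.11 SE, adjusted p = 0.00049). Tead4, a partner of YAP, stood at 4.88 and 6.5 FPKM with DMSO and 1.78 and 2.61 with JQ1 (log2 difference -1.20 ± 0.13 SE, adjusted p = 0.00016). The rises included Hey2, a Notch target of the ventricular wall, at 5.22 and 6.39 FPKM with DMSO and 10.6 and 10.5 with JQ1 (log2 difference 0.82 ± 0.09 SE, adjusted p = 0.00021), and Hand2 at 26.6 and 27.6 FPKM with DMSO and 50.5 and 40.4 with JQ1 (log2 difference 0.73 ± 0.12 SE, adjusted p = 0.0015). None of these 5 genes had overlapping groups. Nkx2-5, a core factor of cardiac identity, did not pass the test at 45.5 and 53.6 FPKM with DMSO and 56.8 and 62.0 with JQ1 (log2 difference 0.26 ± 0.13 SE, adjusted p = 0.12).

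Of 27 nuclear oxidative phosphorylation genes 19 fell (70.4%, beside 29.8% of all genes) and 0 rose (15 and 0 without the replicate term), with a median of -0.55. Sdha, the catalytic subunit of complex II, stood at 364 and 363 FPKM with DMSO and 211 and 165 with JQ1 (log2 difference -0.96 ± 0.14 SE, adjusted p = 0.00076). Cox7a1, the muscle form of a complex IV subunit, stood at 5.52 and 3.95 FPKM with DMSO and 2.09 and 1.09 with JQ1 (log2 difference -1.35 ± 0.15 SE, adjusted p = 0.00018). Both genes were lower in both JQ1 libraries than in either DMSO library. Of the 13 mitochondrially encoded genes 5 rose, 0 fell and 8 did not pass, with a median of 0.33 (38.5% higher, beside 27.1% of all genes). That count was 2 without JQ1 replicate 2 or DMSO replicate 1, and 0 without the replicate term.

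Of 24 fatty acid oxidation and lipid storage genes 12 fell and 2 rose (10 and 2 without the replicate term), with 1 rise without replicate 2 of either group. The shares were 50% lower and 8.33% higher, beside 29.8% and 27.1% of all genes. Cpt1b, which admits long-chain fatty acids to muscle mitochondria, stood at 35.9 and 34.7 FPKM with DMSO and 5.78 and 6.16 with JQ1 (log2 difference -2.47 ± 0.22 SE, adjusted p = 6.9e-05) and overlaps Chkb on the same strand. Plin2, a lipid droplet coat gene, stood at 68.6 and 43.0 FPKM with DMSO and 23.0 and 8.25 with JQ1 (log2 difference -1.93 ± 0.21 SE, adjusted p = 0.00017). Acot2, a mitochondrial thioesterase gene, stood at 19.5 and 15.4 FPKM with DMSO and 4.28 and 3.61 with JQ1 (log2 difference -2.01 ± 0.15 SE, adjusted p = 3.8e-05) and overlaps Heatr4 on the opposite strand. Ech1, an auxiliary enzyme of oxidation, stood at 68.6 and 44.8 FPKM with DMSO and 24.5 and 15.6 with JQ1 (log2 difference -1.48 ± 0.30 SE, adjusted p = 0.0035). The rise named here is Acadvl, the very long chain acyl-CoA dehydrogenase, at 70.9 and 71.0 FPKM with DMSO and 102 and 97.0 with JQ1 (log2 difference 0.48 ± 0.10 SE, adjusted p = 0.0035). Of 13 PPAR, ERR and PGC-1 genes 8 fell (61.5%) and 0 rose (5 and 0 without the replicate term, and 5 falls and 1 rise without DMSO replicate 1). Rxrg, a retinoid receptor that partners with PPARs, stood at 5.60 and 5.71 FPKM with DMSO and 0.116 and 0.189 with JQ1 (log2 difference -3.24 ± 0.22 SE, adjusted p = 2.7e-05). Perm1, a muscle cofactor induced by PGC-1, stood at 8.56 and 9.92 FPKM with DMSO and 0.523 and 0.684 with JQ1 (log2 difference -3.14 ± 0.19 SE, adjusted p = 1.7e-05). The coactivators Ppargc1a and Ppargc1b stood at 11.7 and 14.0 FPKM with DMSO and 8.84 and 7.21 with JQ1 (log2 difference -0.65 ± 0.14 SE, adjusted p = 0.0052) and 9.13 and 13.1 FPKM with DMSO and 5.33 and 5.30 with JQ1 (log2 difference -0.98 ± 0.15 SE, adjusted p = 0.00088). In these 4 genes the groups did not overlap.

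Of 23 glycolysis genes 13 fell (56.5%, beside 29.8% of all genes) and 1 rose (9 and 0 without the replicate term), and the count of rises was between 0 and 2 without a library. Eno3, muscle enolase, stood at 169.7 and 161 FPKM with DMSO and 33.4 and 23.6 with JQ1 (log2 difference -2.53 ± 0.27 SE, adjusted p = 0.00017). Pgam2, muscle phosphoglycerate mutase, stood at 59.4 and 38.0 FPKM with DMSO and 11.0 and 6.54 with JQ1 (log2 difference -2.42 ± 0.24 SE, adjusted p = 0.00011). Slc2a4, the insulin-responsive glucose transporter, stood at 25.6 and 21.5 FPKM with DMSO and 8.20 and 6.19 with JQ1 (log2 difference -1.65 ± 0.23 SE, adjusted p = 0.00062). Each of these muscle forms was at least 2-fold lower. Hk1, the hexokinase prominent in fetal heart, stood at 121 and 129.5 FPKM with DMSO and 62.9 and 47.3 with JQ1 (log2 difference -1.19 ± 0.15 SE, adjusted p = 0.00039). In the creatine system 4 of 7 genes fell (57.1%) and 1 rose (the same without the replicate term), with 2 rises without JQ1 replicate 2. The mitochondrial creatine kinases Ckmt1 and Ckmt2 went from 3.04 and 3.07 FPKM with DMSO to 0.114 and 0.3 with JQ1 (log2 difference -2.34 ± 0.27 SE, adjusted p = 0.00022) and from 10.9 and 5.69 FPKM with DMSO to 1.71 and 1.57 with JQ1 (log2 difference -1.97 ± 0.21 SE, adjusted p = 0.00017), and Ckmt1 overlaps Ppip5k1. Gatm, the first enzyme of creatine synthesis, went from 21.5 and 22.0 FPKM with DMSO to 11.1 and 9.59 with JQ1 (log2 difference -1.04 ± 0.13 SE, adjusted p = 0.00038), while Slc6a8, the creatine transporter, rose from 5.88 and 6.83 FPKM with DMSO to 10.4 and 9.96 with JQ1 (log2 difference 0.64 ± 0.13 SE, adjusted p = 0.0032). Of 28 sterol and fatty acid synthesis genes 15 fell (53.6%) and 1 rose, but 2 fell and 0 rose without the replicate term, and 4 fell without JQ1 replicate 2 and 3 without DMSO replicate 2. Rises were 0 without DMSO replicate 1. Mvd, an enzyme of the mevalonate pathway, was among the falls at 30.9 and 25.9 FPKM with DMSO and 17.4 and 15.1 with JQ1 (log2 difference -0.78 ± 0.06 SE, adjusted p = 5.1e-05).

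Of 29 cell cycle genes measured, 23 fell (79.3%, beside 29.8% of all genes tested) and 2 rose (22 and 2 without the replicate term), with a median of -1.24, and the rises were 0 without replicate 2 of either group and 1 without DMSO replicate 1. Mcm3, a subunit of the replicative helicase, stood at 24.0 and 27.6 FPKM with DMSO and 5.44 and 3.20 with JQ1 (log2 difference -2.49 ± 0.21 SE, adjusted p = 5.7e-05). Mcm5 stood at 25.9 and 33.6 FPKM with DMSO and 6.71 and 4.36 with JQ1 (log2 difference -2.34 ± 0.21 SE, adjusted p = 6.8e-05) and Mcm2 at 19.2 and 24.6 FPKM with DMSO and 7.27 and 4.70 with JQ1 (log2 difference -1.81 ± 0.20 SE, adjusted p = 0.00018). Cdc20, which triggers anaphase, stood at 25.4 and 20.6 FPKM with DMSO and 6.53 and 5.37 with JQ1 (log2 difference -1.87 ± 0.11 SE, adjusted p = 1.6e-05). In all 4 genes both JQ1 libraries were below both DMSO libraries. Mki67, the Ki-67 proliferation antigen, went from 6.13 and 6.60 FPKM with DMSO to 3.13 and 2.48 with JQ1 (log2 difference -1.06 ± 0.12 SE, adjusted p = 0.00021). Ccnd3, a D-type cyclin, did not pass the test at 48.7 and 52.0 FPKM with DMSO and 57.9 and 53.4 with JQ1 (log2 difference 0.14 ± 0.07 SE, adjusted p = 0.13). Which cells of the culture held these transcripts was not tested.

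Promoters of 2 helicase genes are shown because CCAAT was frequent among the cell cycle genes that fell. It occurred in 12 of their 18 windows (66.7%), beside 38.5% of all tested, and TATAAA occurred in 0 of them. TTTGGCGC or TTTCCCGC, which are forms of the E2F site, occurred in 3 of the 18 windows (16.7%), beside 3.22% of all tested. The sequences are the 150 bases before the RefSeq start on GRCr8, 5′ to 3′, with CCAAT or its complement ATTGG in capitals, as are the motif GGGCGG and the motif TTTCCCGC. Mcm3 lies on chromosome 9 at 30733747 to 30733896 on the minus strand and Mcm5 on chromosome 19 at 13488663 to 13488812 on the plus strand.
Mcm3: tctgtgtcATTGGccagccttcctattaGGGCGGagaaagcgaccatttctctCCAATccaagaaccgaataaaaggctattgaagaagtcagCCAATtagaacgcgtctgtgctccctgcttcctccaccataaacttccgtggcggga
Mcm5: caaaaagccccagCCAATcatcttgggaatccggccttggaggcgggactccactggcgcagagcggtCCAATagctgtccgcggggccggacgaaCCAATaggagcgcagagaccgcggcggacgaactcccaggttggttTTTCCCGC
Each holds CCAAT at 3 places, Mcm3 also holds GGGCGG, and Mcm5 holds TTTCCCGC next to the start.

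Rises outnumbered falls among antioxidant and heat shock genes. Of 22 genes listed for the factor Nrf2 and antioxidant defence, 15 rose (68.2%, beside 27.1% of all genes) and 4 fell (9 and 2 without the replicate term), with a median of 0.40. Without DMSO replicate 2 the counts were 8 and 2, and without DMSO replicate 1 there were 2 falls. Gclc, the catalytic subunit of the first enzyme of glutathione synthesis, stood at 14.4 and 17.6 FPKM with DMSO and 50.6 and 89.3 with JQ1 (log2 difference 2.05 ± 0.14 SE, adjusted p = 2.8e-05). Hmox1, heme oxygenase, stood at 7.99 and 5.12 FPKM with DMSO and 18.1 and 27.3 with JQ1 (log2 difference 1.72 ± 0.25 SE, adjusted p = 0.00066). Txnip is on this list though it inhibits thioredoxin, so its rise is not that of an antioxidant gene. It stood at 67.9 and 69.8 FPKM with DMSO and 174 and 182 with JQ1 (log2 difference 1.36 ± 0.29 SE, adjusted p = 0.0049). For all 3 the JQ1 libraries exceeded the DMSO libraries. The falls included Gpx1, the main cytosolic glutathione peroxidase, at 478 and 576 FPKM with DMSO and 251 and 340.5 with JQ1 (log2 difference -0.84 ± 0.12 SE, adjusted p = 0.00064), and Gsta4, a glutathione transferase of lipid aldehydes, at 42.3 and 35.4 FPKM with DMSO and 27.9 and 25.0 with JQ1 (log2 difference -0.55 ± 0.10 SE, adjusted p = 0.002).

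Of 19 heat shock protein genes 11 rose (57.9%) and 3 fell (6 and 2 without the replicate term), with a median of 0.45. The inducible chaperone Hspa1a stood at 7.69 and 7.02 FPKM with DMSO and 21.9 and 14.6 with JQ1 (log2 difference 1.23 ± 0.15 SE, adjusted p = 0.00031). The falls were led by Hspb3, a small heat shock protein of muscle, at 219.8 and 295 FPKM with DMSO and 47.0 and 112 with JQ1 (log2 difference -1.81 ± 0.20 SE, adjusted p = 0.00019), and included Hspd1, the mitochondrial chaperonin, at 155 and 166 FPKM with DMSO and 112 and 104 with JQ1 (log2 difference -0.58 ± 0.08 SE, adjusted p = 0.00045). Of 24 genes of the unfolded protein and integrated stress responses 7 rose and 2 fell (2 and 1 without the replicate term), with 3 rises without JQ1 replicate 2 and 2 without DMSO replicate 2. The share higher, 29.2%, is near the 27.1% of all genes tested. Ddit3, the stress factor CHOP, stood at 52.4 and 29.8 FPKM with DMSO and 114 and 111 with JQ1 (log2 difference 1.5 ± 0.18 SE, adjusted p = 0.00027) and overlaps Mars on the opposite strand. Atf6, a sensor of the endoplasmic reticulum, stood at 9.65 and 10.5 FPKM with DMSO and 15.7 and 20.6 with JQ1 (log2 difference 0.81 ± 0.12 SE, adjusted p = 0.00072), and Pdia6, an oxidoreductase there, was lower at 240.0 and 199 FPKM with DMSO and 175 and 146 with JQ1 (log2 difference -0.46 ± 0.09 SE, adjusted p = 0.0032).

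Of 15 immediate early genes 8 rose (53.3%, beside 27.1% of all genes) and 3 fell (4 and 1 without the replicate term). Jund, a member of the AP-1 family, stood at 88.8 and 95.9 FPKM with DMSO and 199.6 and 275 with JQ1 (log2 difference 1.34 ± 0.10 SE, adjusted p = 3.4e-05), and Egr1, a zinc finger factor of growth signals, at 1.47 and 1.16 FPKM with DMSO and 3.23 and 3.03 with JQ1 (log2 difference 1.01 ± 0.21 SE, adjusted p = 0.0046). Atf3, a stress-induced factor, stood at 8.53 and 14.8 FPKM with DMSO and 16.6 and 46.6 with JQ1 (log2 difference 1.27 ± 0.18 SE, adjusted p = 0.00059) and lost its call without the replicate term (adjusted p 0.00056 to 0.19 over the alternatives). The small Maf gene Maff fell from 11.2 and 9.81 FPKM with DMSO to 5.55 and 4.89 with JQ1 (log2 difference -0.94 ± 0.18 SE, adjusted p = 0.0025). Of 15 ERK feedback genes 7 fell (46.7%, beside 29.8%) and 2 rose (4 and 0 without the replicate term, with 1 rise without JQ1 replicate 2 or DMSO replicate 1). The ETS factors that ERK signalling induces were among the falls, with Etv4 at 11.4 and 8.40 FPKM with DMSO and 1.24 and 0.635 with JQ1 (log2 difference -2.87 ± 0.15 SE, adjusted p = 1.4e-05) and Etv1 at 6.43 and 9.23 FPKM with DMSO and 1.53 and 1.33 with JQ1 (log2 difference -2.09 ± 0.18 SE, adjusted p = 6.4e-05). Spry1, an inhibitor of receptor tyrosine kinase signalling, went from 25.4 and 28.2 FPKM with DMSO to 14.1 and 9.18 with JQ1 (log2 difference -1.20 ± 0.17 SE, adjusted p = 0.0006).

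Of 19 SRF and YAP targets 10 rose (52.6%, beside 27.1% of all genes) and 5 fell (26.3%, beside 29.8%; 5 and 1 without the replicate term), with 6 rises without replicate 2 of either group and 3 falls without replicate 1 of either group. Actg1, cytoplasmic actin, stood at 107 and 64.8 FPKM with DMSO and 165 and 167 with JQ1 (log2 difference 0.99 ± 0.20 SE, adjusted p = 0.0039), and Amotl2, a YAP target that restrains YAP, at 68.0 and 80.4 FPKM with DMSO and 108 and 136 with JQ1 (log2 difference 0.71 ± 0.07 SE, adjusted p = 0.00011). Cnn1, smooth muscle calponin, was lower at 97.3 and 145 FPKM with DMSO and 26.7 and 59.8 with JQ1 (log2 difference -1.56 ± 0.17 SE, adjusted p = 0.0002). Ctgf, a matricellular YAP target, did not pass the test at 360.1 and 559 FPKM with DMSO and 238 and 484 with JQ1 (log2 difference -0.40 ± 0.23 SE, adjusted p = 0.17). Without JQ1 replicate 2 Ctgf passed at -0.74 (adjusted p = 0.034, adjusted p 0.034 to 0.84 over the alternatives). In the Myc network 5 of 10 genes rose (50%) and 0 fell (2 and 0 without the replicate term, with 3 rises without JQ1 replicate 2, 2 without DMSO replicate 2 and 1 fall without JQ1 replicate 1). Myc itself stood at 2.37 and 2.76 FPKM with DMSO and 3.75 and 13.8 with JQ1 (log2 difference 1.35 ± 0.41 SE, adjusted p = 0.023). The call was lost without the replicate term (adjusted p = 0.1) and from the 4 libraries alone (adjusted p = 0.051). The difference was 0.69 (adjusted p = 0.17) without JQ1 replicate 2, 2.01 without JQ1 replicate 1 and 1.06 (adjusted p = 0.15) without DMSO replicate 2 (adjusted p 0.0046 to 0.17 over the alternatives). The Myc antagonists Mxi1 and Mxd1 rose, Mxi1 from 5.94 and 5.79 FPKM with DMSO to 20.3 and 18.8 with JQ1 (log2 difference 1.66 ± 0.11 SE, adjusted p = 2.3e-05) and Mxd1 from 3.12 and 2.74 FPKM with DMSO to 7.69 and 6.47 with JQ1 (log2 difference 1.14 ± 0.07 SE, adjusted p = 1.7e-05).

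Falls outnumbered rises among inflammatory and secreted factor genes, with 45% lower in the NF-kB and cytokine list, 64.3% in the interferon list and 48.1% in the growth factor list, beside 29.8% of all genes. Of 20 NF-kB and cytokine genes 9 fell and 2 rose (5 and 1 without the replicate term, with 0 rises without JQ1 replicate 1 or DMSO replicate 2 and 1 without DMSO replicate 1). Ccl20, a chemokine gene, stood at 27.6 and 25.2 FPKM with DMSO and 2.66 and 6.84 with JQ1 (log2 difference -2.48 ± 0.29 SE, adjusted p = 0.00026), and Vcam1, an adhesion molecule gene, at 4.08 and 8.90 FPKM with DMSO and 1.25 and 1.91 with JQ1 (log2 difference -1.68 ± 0.14 SE, adjusted p = 5.5e-05). Of 14 interferon response genes 9 fell and 1 rose (2 and 0 without the replicate term). Ifi44 stood at 3.54 and 2.35 FPKM with DMSO and 0.608 and 0.31 with JQ1 (log2 difference -1.84 ± 0.17 SE, adjusted p = 7.4e-05) and Ifit1, a sensor of foreign RNA, at 1.82 and 1.17 FPKM with DMSO and 0.386 and 0.462 with JQ1 (log2 difference -1.10 ± 0.18 SE, adjusted p = 0.0014). In these 4 genes the groups did not overlap. Of 27 secreted growth factor genes 13 fell and 1 rose (7 and 0 without the replicate term), and that rise was not called when any 1 of the 4 libraries was left out. Inhba, an activin subunit, stood at 9.89 and 8.02 FPKM with DMSO and 2.04 and 1.36 with JQ1 (log2 difference -2.11 ± 0.19 SE, adjusted p = 7.7e-05). Pgf, a placental VEGF family member, stood at 5.56 and 2.18 FPKM with DMSO and 0.664 and 0.359 with JQ1 (log2 difference -2.01 ± 0.19 SE, adjusted p = 9.9e-05), and Fgf16, a cardiac growth factor, at 10.9 and 11.3 FPKM with DMSO and 3.52 and 4.37 with JQ1 (log2 difference -1.39 ± 0.18 SE, adjusted p = 0.00037).

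Collagen and periostin transcripts differed more between replicate numbers than between treatments. Of 28 extracellular matrix genes 17 fell and 1 rose with the replicate term and 0 in either direction without it (11 falls and 3 rises without DMSO replicate 2). Postn, periostin of activated fibroblasts, stood at 191 and 36.0 FPKM with DMSO and 84.1 and 11.8 with JQ1 (log2 difference -1.37 ± 0.14 SE, adjusted p = 0.00015). Col1a1, the main fibrillar collagen chain, stood at 147 and 40.8 FPKM with DMSO and 114 and 26.3 with JQ1 (log2 difference -0.50 ± 0.12 SE, adjusted p = 0.0092), and Col3a1 at 382 and 91.1 FPKM with DMSO and 191 and 39.7 with JQ1 (log2 difference -1.09 ± 0.10 SE, adjusted p = 7.8e-05). Within each number JQ1 was lower, but the groups overlapped in all 3 genes. Eln, elastin, stood at 70.7 and 34.4 FPKM with DMSO and 27.8 and 12.3 with JQ1 (log2 difference -1.39 ± 0.09 SE, adjusted p = 2e-05), and Fn1, fibronectin, at 32.1 and 17.5 FPKM with DMSO and 59.4 and 23.8 with JQ1 (log2 difference 0.66 ± 0.13 SE, adjusted p = 0.003), with overlap for Fn1 only of this pair. These 5 genes lost their calls without the replicate term, with adjusted p 0.00012 to 0.54 over the alternatives for Postn, adjusted p 0.0057 to 0.77 over the alternatives for Col1a1, adjusted p 6.2e-05 to 0.56 over the alternatives for Col3a1, adjusted p 1.8e-05 to 0.15 over the alternatives for Eln and adjusted p 0.0029 to 0.47 over the alternatives for Fn1. Col1a1 was also not called without JQ1 replicate 2 (-0.41, adjusted p = 0.069) or DMSO replicate 2 (-0.43, adjusted p = 0.069). The fibroblast marker list includes Postn, Col1a1 and Col3a1, so its sum is not a readout separate from them. Its markers summed to 897 and 218 FPKM with DMSO and 516 and 112 with JQ1. Of the 12, 11 fell with the replicate term (91.7%, beside 29.8% of all genes tested) and 0 without it. One of them, the fibroblast marker Pdgfrl, stood at 3.21 and 0.942 FPKM with DMSO and 0.479 and 0.0919 with JQ1 (log2 difference -1.60 ± 0.25 SE, adjusted p = 0.00096, adjusted p 0.001 to 0.12 over the alternatives). The part of such cells in the matrix changes was not tested.

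Of 23 genes of matrix crosslinking and proteolysis 10 fell and 4 rose (3 and 0 without the replicate term), a share of 43.5% lower and a median of -0.24. For the extracellular matrix genes the share was 60.7% lower and the median -0.45. Over all genes tested 29.8% were lower and the median was 0.03. Lox, lysyl oxidase, stood at 4.75 and 3.48 FPKM with DMSO and 0.97 and 0.574 with JQ1 (log2 difference -1.86 ± 0.13 SE, adjusted p = 3.1e-05) and overlaps Znf474. P4ha3, a collagen prolyl hydroxylase subunit, stood at 11.0 and 7.85 FPKM with DMSO and 2.92 and 1.99 with JQ1 (log2 difference -1.75 ± 0.10 SE, adjusted p = 1.6e-05), and Adamts1, a proteoglycan-cleaving protease, at 25.6 and 15 FPKM with DMSO and 7.08 and 4.86 with JQ1 (log2 difference -1.66 ± 0.14 SE, adjusted p = 6e-05). None of the 3 overlapped between groups. Ccnd1, cyclin D1, stood at 37.6 and 17.8 FPKM with DMSO and 11.9 and 4.69 with JQ1 (log2 difference -1.72 ± 0.14 SE, adjusted p = 4.5e-05), and its call was lost without the replicate term (adjusted p 4.1e-05 to 0.082 over the alternatives).

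Marker genes called lower made up 72.7% of the smooth muscle and pericyte list and 71.4% of the epicardial and mesothelial list. The shares were 85.7% for macrophage, 66.7% for endothelial and 40% for glial and neuronal markers. Over all genes tested 29.8% were lower, and 41.0% of those in the lowest class by mean level (0.23 to 3.54 FPKM). That mean includes the JQ1 libraries, so falls themselves add to the lowest class. Of 11 smooth muscle and pericyte markers 8 fell and 2 rose (4 and 1 without the replicate term, with 1 rise without replicate 2 of either group or DMSO replicate 1), while their summed level was 2140.2 and 2366 FPKM with DMSO and 2406 and 2876 with JQ1. Cspg4, the pericyte proteoglycan NG2, stood at 26.1 and 30.9 FPKM with DMSO and 8.57 and 7.68 with JQ1 (log2 difference -1.75 ± 0.15 SE, adjusted p = 6.1e-05). Of 7 epicardial and mesothelial markers 5 fell, and Krt18, a keratin of such layers, stood at 9.81 and 3.43 FPKM with DMSO and 1.25 and 0.0389 with JQ1 (log2 difference -2.71 ± 0.18 SE, adjusted p = 2.2e-05). Cd163 of macrophages and Th of neurons were listed at 0 in all 4 libraries. Macrophage markers fell in 6 of 7 tested cases and endothelial markers in 4 of 6, while Egfl7, an endothelial secreted protein gene, rose from 3.96 and 2.35 FPKM with DMSO to 7.23 and 5.74 with JQ1 (log2 difference 0.96 ± 0.15 SE, adjusted p = 0.00096). Without the replicate term 0 macrophage markers, 0 endothelial falls and 1 epicardial marker were called. Of 5 glial and neuronal markers 2 fell (1 without the replicate term), with Dbh, the enzyme that makes noradrenaline, at 1.32 and 1.10 FPKM with DMSO and 0.108 and 0 with JQ1 (log2 difference -1.63 ± 0.13 SE, adjusted p = 4.1e-05). Against this, the 10 cardiomyocyte markers counted 2 rises and 3 falls (1 and 2 without the replicate term). These are shares of 20% and 30%, where all genes tested had 27.1% and 29.8%.

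**Figure D4:**
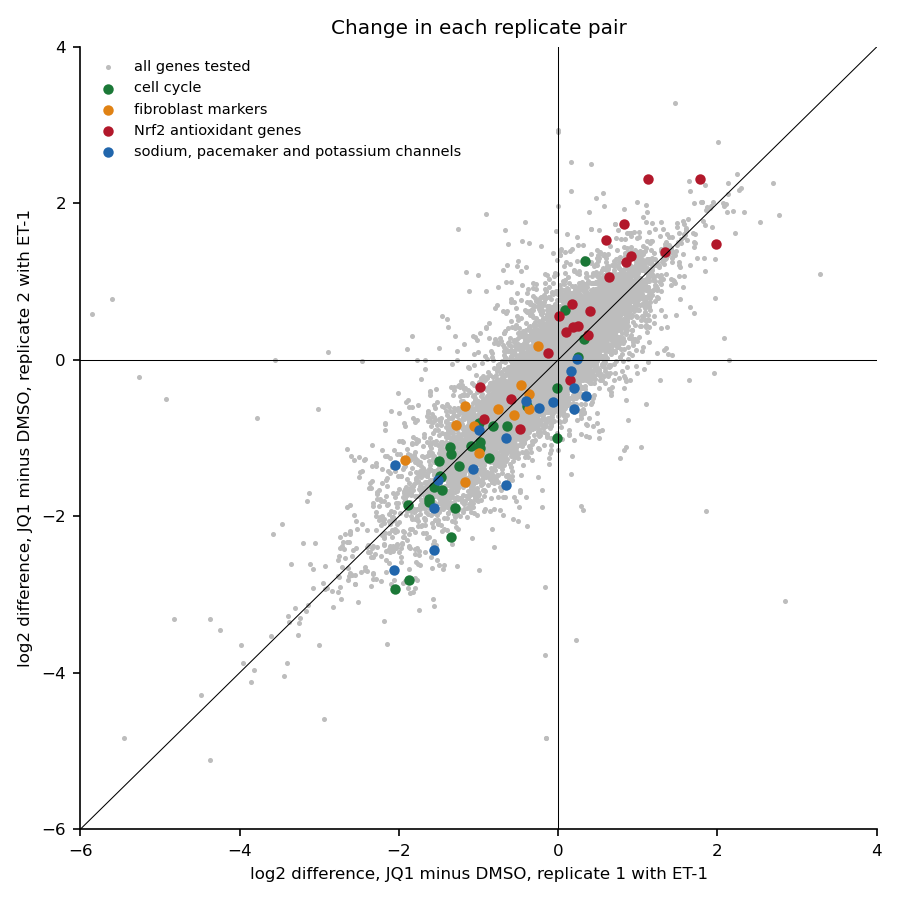
Log2 difference between JQ1 and DMSO with ET-1 in replicate 1 (horizontal) and in replicate 2 (vertical) for all genes tested (grey), with 4 gene lists in colour and the diagonal marking equal change. The axes run from -6 to 4 and leave out 9 genes. Cell cycle and channel genes lie mainly in the lower left quadrant and Nrf2 genes mainly in the upper right.

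The change was similar in size in the pairs of libraries that share a number. Across the 13793 genes the log2 difference in replicate 1 correlated with that in replicate 2 at a Pearson r of 0.759, and at 0.882 over the 12500 genes with a transcript of at least 400 nt. These pairs share no library, but genes are not independent and share expression level. The median absolute difference was 0.35 in replicate 1 and 0.40 in replicate 2.

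The same comparison in vehicle and with PE called many of the same genes. JQ1 against DMSO called 3428 genes higher (24.9%) and 3851 lower (27.9%) in vehicle, and 3680 higher (26.7%) and 4102 lower (29.7%) with PE. Of the 3740 genes higher with ET-1, 2903 were higher in vehicle (77.6%, and 84.7% of the vehicle list) and 3170 with PE (84.8%, and 86.1% of the PE list). Of the 4109 genes lower with ET-1, 3324 were lower in vehicle (80.9%, and 86.3% of the vehicle list) and 3701 with PE (90.1%, and 90.2% of the PE list). In all 3 treatments 2634 genes were higher (70.4% of those higher with ET-1) and 3140 lower (76.4%). All these calls came from the same fit with a shared estimate of spread, so the lists are not independent. A gene called in opposite directions was rare: 5 genes between ET-1 and vehicle and 2 between ET-1 and PE. Across genes the log2 differences correlated at 0.884 with those in vehicle and 0.924 with those with PE (0.915 and 0.962 over genes of at least 400 nt), in libraries that are not shared though processed together.

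For the leading genes the difference between these JQ1 effects did not pass the test, and the values stand side by side. The log2 difference of Hexim1 was 2.31 with ET-1, 2.07 in vehicle and 2.16 with PE, and that of Brd2 was 2.03 with ET-1, 1.73 in vehicle and 2.01 with PE. Smim5 was at -5.15 with ET-1, -3.84 in vehicle and -4.76 with PE. Ednra was at -2.36 with ET-1, -1.27 in vehicle and -1.11 with PE. Corin was at -2.76 with ET-1, -2.18 in vehicle and -2.54 with PE, Mcm3 at -2.49 with ET-1, -1.55 in vehicle and -2.23 with PE and Tnnt2 at 0.98 with ET-1, 1.08 in vehicle and 1.09 with PE. Acta1 was at 1.3 with ET-1, 1.06 in vehicle and 1.25 with PE. Nppb was at -0.26 with ET-1, 0.19 in vehicle and -0.70 with PE and Nppa at -0.14 with ET-1, 0.43 in vehicle and -0.15 with PE. Hypertrophy genes had list medians of -0.09 with ET-1, 0.03 in vehicle and -0.19 with PE, and cell cycle genes -1.24, -0.50 and -0.97.

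**Figure D5:**
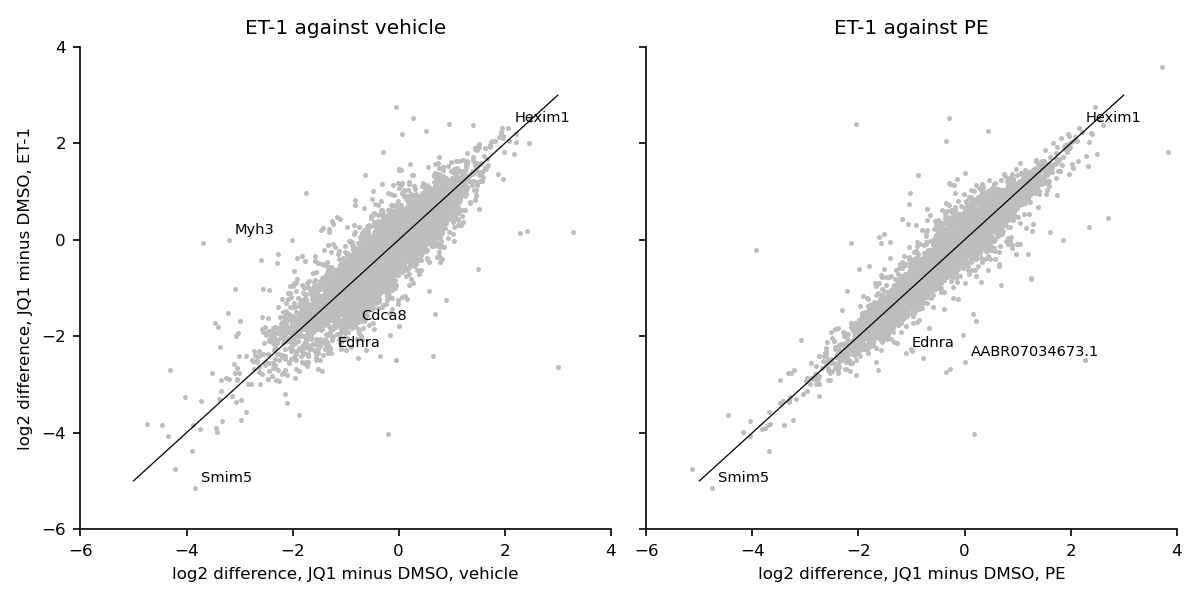
Log2 difference between JQ1 and DMSO with ET-1 (vertical) against that in vehicle (left) and with PE (right) for each of the 13793 genes, with a line of equal change. The axes run from -6 to 4 and leave out 5 genes on the left and 6 on the right. Most genes lie along the line, while Myh3 on the left and AABR07034673.1 on the right lie far from it.

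The difference between JQ1 effects passed the test in few genes. Against vehicle 5 genes passed, 3 negative (0.0218% of those tested) and 2 positive (0.0145%), of 1415 with an unadjusted p under 0.05. Cdca8, Fbxo5 and Ube2t, genes of dividing cells, fell further with ET-1 than in vehicle. Cdca8, a subunit of the chromosomal passenger complex, stood at 29.2 and 30.2 FPKM with DMSO and 7.76 and 8.78 with JQ1 with ET-1 and at 23.8 and 25.8 FPKM with DMSO and 13.3 and 14.3 with JQ1 in vehicle, a difference between the JQ1 effects of -0.97 ± 0.08 on the log2 scale, adjusted p = 0.026. Fbxo5, an inhibitor of the anaphase-promoting complex, stood at 12.7 and 11.1 FPKM with DMSO and 4.34 and 3.89 with JQ1 and in vehicle at 11.5 and 10.6 FPKM with DMSO and 7.69 and 7.70 with JQ1 (-0.93 ± 0.10 on the log2 scale, adjusted p = 0.038). Ube2t, a ubiquitin-conjugating enzyme of DNA repair, stood at 19.0 and 19.0 FPKM with DMSO and 6.05 and 6.18 with JQ1 and in vehicle at 18.7 and 19.8 FPKM with DMSO and 12 and 12 with JQ1 (-0.90 ± 0.09 on the log2 scale, adjusted p = 0.038). In each the JQ1 level was lower with ET-1. The DMSO levels were near each other in both treatments for Fbxo5 and Ube2t. For Cdca8 both DMSO libraries with ET-1 were above both in vehicle. With PE Cdca8 stood at 33.2 and 34.1 FPKM with DMSO and 12.8 and 12.8 with JQ1. Fbxo5 stood there at 12.3 and 10.8 FPKM with DMSO and 5.07 and 4.41 with JQ1. Ube2t stood there at 19.8 and 20.6 FPKM with DMSO and 8.9 and 8.12 with JQ1. For these genes the difference between ET-1 and PE did not pass the test. Myh3, the embryonic myosin heavy chain, stood at 7.35 and 10.2 FPKM with DMSO and 6.02 and 12.3 with JQ1 with ET-1 and at 4.78 and 6.28 FPKM with DMSO and 0.0927 and 0.209 with JQ1 in vehicle (3.20 ± 0.24 on the log2 scale, adjusted p = 0.014), so it fell with JQ1 in vehicle and not with ET-1. With PE Myh3 stood at 6.65 and 9.39 FPKM with DMSO and 4.57 and 8.21 with JQ1. Its reads may be shared with other myosin heavy chain genes and with an overlapping entry. Sct, the gut hormone secretin, was listed at 0 in all 4 libraries with ET-1 and stood at 1.39 and 1.63 FPKM with DMSO and 0 and 0 with JQ1 in vehicle (2.0 ± 0.20 on the log2 scale, adjusted p = 0.038). Against PE 1 gene passed (0.00725%), AABR07034673.1, a gene without a name (-2.54 ± 0.17 on the log2 scale, adjusted p = 0.0053), of 366 with an unadjusted p under 0.05. None passed without the replicate term, where 616 and 117 had an unadjusted p under 0.05. In the comparison with vehicle 2 passed without either JQ1 library, 0 without DMSO replicate 1 and 3 without DMSO replicate 2. In that with PE 2 passed without either JQ1 library, 1 without DMSO replicate 1 and 3 without DMSO replicate 2.

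Genes that responded to PE were followed in the ET-1-treated cells, whose libraries are in neither group of the comparison of PE with vehicle. Both comparisons share the estimate of spread, the replicate term and the scaling, so their calls are not independent. PE against vehicle with DMSO called 1627 genes higher (11.8%) and 1687 lower (12.2%). Of all 1627 raised, 38.8% were lower and 23.2% higher with JQ1 in ET-1-treated cells, with a median log2 difference of -0.12. Of all 1687 lowered, 30.8% were lower and 32.8% higher, with a median of 0.03. The shares differed more in the genes that PE changed at least 2-fold. Of the 217 that PE raised at least 2-fold, 111 (51.2%) were lower with JQ1 in ET-1-treated cells and 19 (8.76%) higher, with a median log2 difference of -0.55. Of the 191 that PE lowered at least 2-fold, 99 (51.8%) were lower and 21 (11.0%) higher, with a median of -0.61. Among the 10479 genes that PE did not change at the threshold, a group with no cut on fold, 28.2% were lower and 26.8% higher.

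The direction of change differed with the level of a gene. That level is the mean over all 12 libraries, including the 4 compared, so a fall with JQ1 itself lowers it. A gene that fell could also pass the filter through DMSO libraries alone. The classes are therefore not independent of the direction. In the lowest of 4 equal classes by mean level (0.23 to 3.54 FPKM) 41.0% of genes were called lower and 14.4% higher, and in the highest class 21.2% were lower and 33.1% higher. By genomic span among genes of at least 400 nt, 29.1% were lower and 25.7% higher in the shortest of 4 classes, and 30.6% and 29.4% in the longest. In the classes between, from shorter to longer, 34.9% were lower and 26.1% higher, and 32.6% and 30.1%. Genes with transcripts under 400 nt were called in 20.3% higher and 10.3% lower of 1293 cases. Such short genes took 12.76% and 14.32% of the bases with DMSO and 10.21% and 16.92% with JQ1. The share in JQ1 replicate 2 was the highest of the 12 libraries.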

How the data were processed

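The submitters' processing notes name build rn6 and the tools StringTie (1.3.4d), STAR (2.7.1a), DESeq2 (1.24.0) and Trim Galore (0.6.0). The deposited tables gave mean coverage (signal) and FPKM per transcript, per the file headers, with 41078 transcripts of 32883 genes. Gene values are sums of FPKM divided by a median-of-ratios factor per library (0.8733 to 1.127). Genes with at least 1 FPKM in at least 2 of 12 libraries (13793) were tested by limma 3.58.1 in R 4.3.3, with trend and robust moderation, on log2(FPKM + 0.5). The model held 6 group means and the replicate number. P-values were adjusted by Benjamini-Hochberg over all genes tested, and fold changes understate those of low genes. Tables were read with Python 3.11.15.

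The labels do not say what the number marks. Libraries were paired by that number because the rule for the comparison sets it. In the data, deviations from group means of same-numbered libraries correlated at 0.16 to 0.67 over 15 pairs of groups (0.44 for the 2 groups compared). Fits without the number, with other pseudocounts, filters and scalings, from 4 libraries alone and without each library were the alternatives. Named genes were the 12 largest rises and falls of at least 5 FPKM in the higher group and 400 nt, a fixed set of hypertrophy, BET and endothelin genes, up to 4 called members a direction and 2 uncalled abundant members a list, genes of the difference tests and the 3 lowest p-values. From the list members that this gives, those described were chosen after their values were seen, as were Ppargc1a, Mvd, Mki67 and Nkx2-5. The groups and lists were chosen with earlier results of these data known. Some genes that the rule names are not reported here. How the quantification used strand is not stated, so overlapping genes are uncertain. Promoters are from RefSeq (GRCr8). List members without a matching symbol were not analysed here.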

Additional observations from a re-analysis of the deposited data

Results flagged for a closer look

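The JQ1 effect differed between ET-1-treated and vehicle-treated cells in 5 genes by the test of the difference itself (limma, with the replicate term). The effect was more negative with ET-1 for Cdca8 (difference -0.97 on the log2 scale, adjusted p = 0.026), Fbxo5 (-0.93, adjusted p = 0.038) and Ube2t (-0.90, adjusted p = 0.038). It was more positive with ET-1 for Myh3 (3.20, adjusted p = 0.014) and Sct (2.0, adjusted p = 0.038), and Sct was listed at 0 in all ET-1 libraries. None of these 5 genes passed the test of the difference between ET-1 and PE. Between ET-1 and PE the effect differed in AABR07034673.1 (-2.54, adjusted p = 0.0053), which was listed at 0 in all PE libraries and in both JQ1 libraries with ET-1, so the difference rests on the 2 ET-1 libraries with DMSO. Without the replicate term none of the 6 passed, with adjusted p from 0.056 to 0.29. No cause was tested.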

How the results depend on the processing

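Calls per gene rest on 2 libraries a group, on the replicate term and on the choice of scale. The median of all genes shifted by -0.095 on the deposited scale and by -0.1 with scaling by the summed level of longer genes. Without the replicate term 5168 genes were called in place of 7849 (2471 higher, 2697 lower), 210 list members in place of 403, 837 genes for PE against vehicle in place of 3314, and for JQ1 4411 in vehicle and 5030 with PE in place of 7279 and 7782. Without single libraries 6148 to 6900 genes were called with ET-1. The difference from vehicle gave 5 genes, but 0 without the replicate term, 13 with no filter on low values, 3 on the deposited scale, 3 with scaling by longer genes, 8 without trend and robust moderation, and 0 to 3 without single libraries. The difference from PE gave 1 gene, but 0 without the replicate term, 6 with no filter, 0 with a filter of 5 FPKM, and 1 to 3 without single libraries. At a filter of 5 FPKM 870 genes fell at least 2-fold in place of 1398. Of the 166 genes named, 151 kept direction and call without the replicate term and 15 lost the call. Small differences changed sign for 4 genes. Nppb was at -0.56 to 0.0446 without single libraries, Myh6 at -0.055 to 0.146, Myh7 at -0.142 to 0.057 and Myh3 at -0.259 to 0.255. Myh6 was also at -0.0589 on the deposited scale and -0.0677 with scaling by longer genes, and Myh3 at 0.000993 with a pseudocount of 1. The cause of these changes was not tested. Depth is known only as coverage, so no counting interval is given.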

Other observations

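Calls among clock, cell survival, ribosome and junction genes ran in both directions, beside 27.1% higher and 29.8% lower of all genes tested. Of 17 circadian clock genes 5 rose (29.4%) and 3 fell (17.6%; 4 and 1 without the replicate term, and 1 fall without JQ1 replicate 1). Per3, a period gene, went from 8.64 and 10.1 FPKM with DMSO to 20.4 and 21.6 with JQ1 (log2 difference 1.13 ± 0.16 SE, adjusted p = 0.0006), Nr1d2, a repressor of the clock, from 10.2 and 10.2 FPKM with DMSO to 19.3 and 23.3 with JQ1 (log2 difference 1.02 ± 0.11 SE, adjusted p = 0.00014) and Tef, an output factor, from 21.4 and 18.7 FPKM with DMSO to 38.1 and 36.1 with JQ1 (log2 difference 0.88 ± 0.09 SE, adjusted p = 0.00015). Of 15 Bcl-2 family genes 3 rose (20%) and 5 fell (33.3%; 2 and 3 without the replicate term, and 2 falls without DMSO replicate 1). The BH3-only genes, which promote cell death, split: Bcl2l11 rose from 4.62 and 4.60 FPKM with DMSO to 14.8 and 10.2 with JQ1 (log2 difference 1.32 ± 0.22 SE, adjusted p = 0.0016), and Bik fell from 7.64 and 5.80 FPKM with DMSO to 2.93 and 1.36 with JQ1 (log2 difference -1.5 ± 0.24 SE, adjusted p = 0.0012). Bnip3l, a receptor for mitophagy, rose from 16.7 and 13.6 FPKM with DMSO to 33.0 and 29.8 with JQ1 (log2 difference 1.03 ± 0.07 SE, adjusted p = 2e-05).

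Of 25 ribosome biogenesis genes 6 rose and 2 fell (24% higher and 8% lower, beside 27.1% and 29.8% of all genes; 4 and 1 without the replicate term, with 0 falls without replicate 1 of either group and 1 without replicate 2 of either group). Bop1, which processes ribosomal RNA, went from 13.4 and 13.5 FPKM with DMSO to 20.1 and 29.1 with JQ1 (log2 difference 0.83 ± 0.17 SE, adjusted p = 0.0038) and overlaps Scx and Mroh1. Ddx21, a nucleolar helicase, went from 21.7 and 22.8 FPKM with DMSO to 32.3 and 34.7 with JQ1 (log2 difference 0.58 ± 0.10 SE, adjusted p = 0.0014). In these genes both JQ1 libraries exceeded both DMSO libraries. Of 13 intercalated disc and gap junction genes 2 rose and 2 fell (15.4% each way; 1 and 1 without the replicate term, with 5 falls without JQ1 replicate 1, 1 fall without replicate 2 of either group and 1 rise without DMSO replicate 1).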
